A study of Mus musculus with 14 samples.

Results

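The genes described are the chemokines and chemokine receptors of the mouse liver, taken as every gene of the deposited table whose symbol begins with Ccl, Cxcl, Cx3cl, Xcl, Ccr, Cxcr, Cx3cr, Xcr or Ackr followed by its number. This rule found 58 of the 25212 listed genes, of which 36 encode ligands and 22 encode receptors. The livers of 14 male C57BL/6 mice kept on a high-fat diet (HFD) were each sequenced as 1 RNA library. Operated animals were sampled 8 weeks after the operation according to their labels. The 5 DIO livers came from diet-induced obese mice without an operation, so surgery itself is not matched in the controls. The 4 GB-IL livers came from mice whose common bile duct was ligated and whose gallbladder was joined to the ileum, so that bile reached the gut there. The 5 RYGB livers came from mice with a Roux-en-Y gastric bypass. The replicates are separate mice of 1 strain and sex.

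Chemokines are small secreted proteins that draw leukocytes along a gradient by binding G protein-coupled receptors on their surface. Many ligands share receptors. Ccl2 attracts monocytes through Ccr2, Cxcl1 attracts neutrophils through Cxcr2, Cxcl9 attracts activated T cells through Cxcr3, and Cxcl13 attracts B cells through Cxcr5. In the liver, Kupffer cells, stellate cells, sinusoidal endothelium, bile duct epithelium and hepatocytes can all release chemokines, while most of the receptors are carried by the leukocytes that arrive. The atypical receptors, named Ackr, take up ligands without G protein signalling.

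Total counts ranged from 18440676 to 21473005 in the DIO livers, from 19231679 to 26131278 in the GB-IL livers and from 18223135 to 28656631 in the RYGB livers. Levels are given as CPM, that is, counts relative to the library total scaled by the TMM method. Summed cell markers are instead CPM of the library total without TMM scaling. Values of single livers are listed in the order of their numbers, 1 to 5 in DIO and RYGB and 1 to 4 in GB-IL. GB-IL liver 4 stood apart from its group, since on the first principal component of all tested genes (48.5% of the variance) it lay at -35.3, between the DIO livers at -45.7 to -21.9, while GB-IL livers 1, 2 and 3 lay at 134, 106 and 20.1. The hepatocyte marker list (among them Alb, Ttr and Hnf4a) summed to between 76034 and 148664 CPM in every liver, as the label liver implies. On this unscaled measure all GB-IL livers (76034 to 113367 CPM) lay below all DIO livers (114208 to 131253 CPM). The order was not computed with TMM scaling, where Alb overlapped (92394 CPM in GB-IL liver 4, 91668 CPM in DIO liver 2). Of the 6 genes of the list, 3 were higher and 3 lower in GB-IL against DIO, and 0 were called. The 5 summed cholangiocyte markers ran from 31.9 to 64.3 CPM in DIO and stood at 297, 238, 205 and 60.0 CPM in GB-IL livers 1 to 4, and 3 of them rose in GB-IL against DIO (Krt19, Krt7 and Spp1). Spp1 alone made up most of these sums, at 286, 216, 205 and 49.5 CPM in GB-IL livers 1 to 4 with TMM scaling. Epcam and Sox9 did not pass (adjusted p = 0.0510 and 0.329), and Epcam in GB-IL liver 3 (1.61 CPM) lay inside the DIO range. The part of either cell type in the chemokine values was not tested. Among the leukocyte lists, the summed macrophage markers ran from 195 to 396 CPM in DIO and from 436 to 1198 CPM in GB-IL. All 7 of these genes had a positive log2 fold change, and 2 were called (Lyz2 and Cd68). Lyz2 alone stood at 244, 414, 531 and 121 CPM in GB-IL livers 1 to 4 with TMM scaling, against 48.6 to 102 CPM in DIO. Emr1 in GB-IL livers 1 and 2 (7.20 and 15.0 CPM) lay below every DIO liver (15.2 to 35.9 CPM). The summed neutrophil markers ran from 4.70 to 9.84 CPM in DIO and from 5.89 to 408 CPM in GB-IL. In bulk RNA, more cells of a type and more RNA per cell cannot be told apart, which touches every result below.

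Of the 58 genes, 31 had enough counts to be tested (19 ligand and 12 receptor genes), 22 had at least 10 counts in all but were too low for the test, and 5 had fewer than 10 counts over the 14 livers (Ccl1, Ccl20, Ccr4, Ccr8 and Cxcl15). Ccl3, Ccl19 and Ccl21a passed the filter on low counts only because of the GB-IL livers, so these 3 could hardly be tested without differing. Ccl25 and Ackr4 are each listed under a pair of identifiers, and only 1 identifier of each was tested. Ccl21a, Ccl19 and Ccl27a have near-identical copies in the mouse genome, so their counts are uncertain. Exons of Cxcl16, Cxcl10, Cxcl11, Cx3cr1, Cxcr5, Ccl25, Ccl27a and Ackr4 overlap exons of a gene on the opposite strand (Zmynd15, Art3, Gm2673, Gm33858, Bcl9l, Elavl1, Il11ra1 and Acad11), and since the strand setting of the counting is not given in the sources used here, reads of these pairs cannot be told apart.

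In the group means, Cxcl12, the ligand of Cxcr4 that retains and positions leukocytes, was the most abundant chemokine per kilobase of exon in DIO at 33.8 CPM per kb and in RYGB at 45.9 CPM per kb. In GB-IL it stood at 22.3 CPM per kb, below Cxcl13 at 49.8 and Ccl6 at 31.9 CPM per kb. The DIO mean of Cxcl13 was 2.72 CPM per kb and that of Ccl6 was 7.92 CPM per kb. Cxcl1, Ccl9 and Cxcl9 completed the 6 highest genes over all livers, at 11.4, 10.7 and 5.21 CPM per kb. Among the receptors the highest were Ackr2 at 1.34 and Cxcr4 at 1.06 CPM per kb over all livers. Summed over all 58 genes without Cxcl12, the chemokine system took 110.4 to 144 CPM in DIO, 118 to 156 CPM in RYGB, and 368, 308, 497 and 139 CPM in GB-IL livers 1 to 4. Livers 1, 2 and 3 of GB-IL therefore lay above every other liver, and GB-IL liver 4 lay inside the DIO range.

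**Figure D1:**
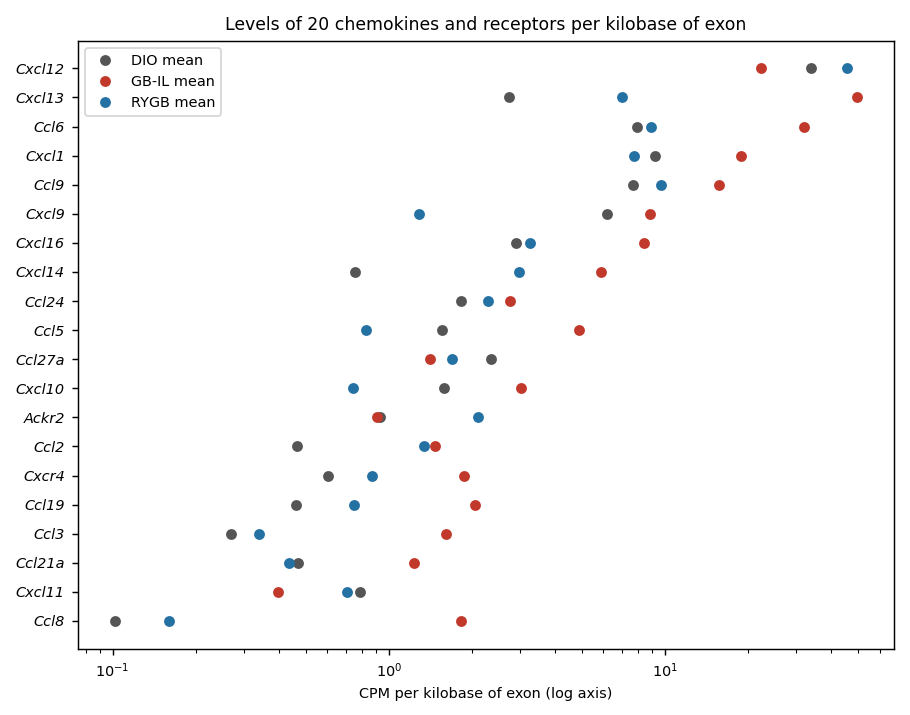
Mean level of 20 abundant chemokines and receptors in CPM per kilobase of exon, on a log axis, with 1 point for each of the 3 groups. Cxcl12 leads in DIO and RYGB, and Cxcl13, at 49.8 CPM per kb, leads in GB-IL.

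The comparison of GB-IL with DIO sets the liver's messages for leukocyte traffic after bile diversion to the ileum beside those of unoperated obese mice. The paper reports that GB-IL mice also ate less and lost weight. These differences cannot be told apart from bile diversion here. Of the 31 tested genes 7 rose (Cxcl13, Cxcl16, Ccl9, Ccl6, Ccl19, Ccl3 and Cxcr2) and 0 fell at a false discovery rate (FDR) of 0.05 in edgeR's quasi-likelihood test, where 3.15% of all tested genes rose and 0.112% fell. At an unadjusted p under 0.05, 13 were higher, against 16.7% of all tested genes, and 1 was lower, against 6.43%. Of the 28 chemokine genes that also passed the filter without the GB-IL livers, 5 rose, against 2.85% of all such genes. At an unadjusted p under 0.05, 11 of the 28 were higher, against 2160 of all 13627 such genes. The median log2 fold change of the 28 was 0.98, against 0.02. Over all 31 the median was 1.03, against 0.04 over all 14252 tested genes. In Cxcl13, Ccl9, Ccl3, Ackr3 and Ccl2 all GB-IL livers lay above all DIO livers, which was so for 2.67% of all tested genes. Ccl3 among them was tested only through its GB-IL counts. None of the tested chemokine genes had all GB-IL livers below DIO (1.51% of all tested genes).

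These calls stood close to the threshold. With any of the 5 DIO livers left out, or without GB-IL liver 1 or 2, 0 chemokine genes were called, and the smallest adjusted p over all genes then lay between 0.0581 and 0.0942. A fit of the DIO and GB-IL livers alone, without the RYGB livers to estimate the spread, also called 0 genes. Leaving out GB-IL liver 4 raised the count to 19, with 15 higher and 4 lower (Cxcl12, Ccl25, Ccl27a and Ackr4), while the share of all tested genes called reached 24.6%. That fit tested 33 chemokine genes, and the 15 included Ccr1 and Cxcl2, which the main filter left out. When single livers were dropped, Cxcl13 kept a log2 fold change between 3.64 and 4.56, and that of Ccl3 fell from 2.54 to 1.66 without GB-IL liver 1 (adjusted p = 0.164). The other 5 moved by less than 1.5 times.

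**Figure D2:**
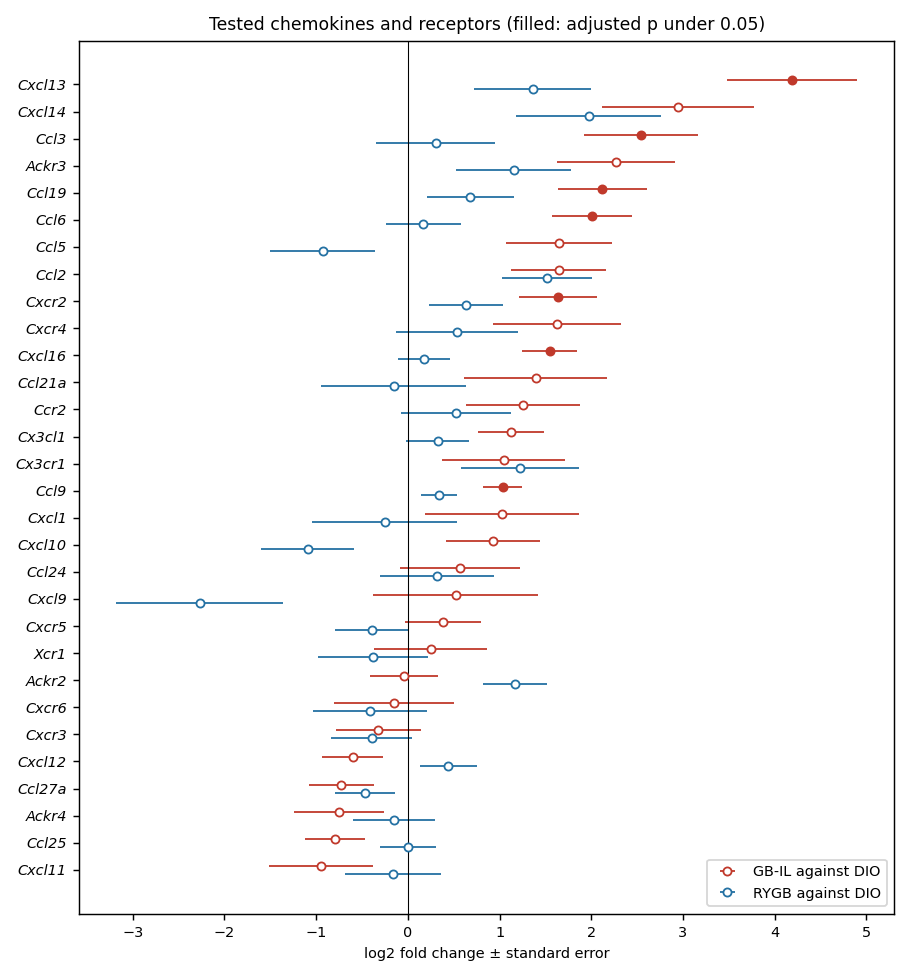
Log2 fold change with its standard error for 30 of the 31 tested genes, GB-IL against DIO in red and RYGB against DIO in blue, ordered by the former. Filled points passed an adjusted p of 0.05, and the 7 filled points are all in the comparison of GB-IL with DIO.

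The ligands that organise lymphoid tissue held the largest change. Cxcl13 (ENSMUSG00000023078, chr5:95956951-95961068 on the plus strand of GRCm38), which guides B cells into follicles through Cxcr5, was at 3.09, 5.90, 2.60, 2.38 and 1.68 CPM in DIO, 57.7, 53.2, 112 and 6.64 CPM in GB-IL and 9.62, 6.76, 5.49, 1.53 and 16.8 CPM in RYGB. GB-IL liver 3 was the highest of all livers, and even GB-IL liver 4 lay above the 5 DIO livers. Cxcl13 rose in GB-IL against DIO (log2 fold change 4.19, SE 0.71, adjusted p = 0.0278), and it was higher in GB-IL than in RYGB without passing the threshold (log2 fold change 2.83, SE 0.67, adjusted p = 0.0820). Its receptor Cxcr5, which marks B cells and follicular T helper cells, was at 0.785, 1.33, 0.967, 0.283 and 0.769 CPM in DIO, 1.42, 1.58, 0.721 and 0.664 CPM in GB-IL and 1.04, 0.641, 0.599, 0.496 and 0.415 CPM in RYGB. The 3 groups overlapped and Cxcr5 did not pass in GB-IL against DIO (adjusted p = 0.567). The summed B cell markers ran from 0.73 to 5.12 CPM in GB-IL and from 0.93 to 12.2 CPM in DIO.

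Ccl19 (ENSMUSG00000071005, chr4:42754525-42756577, minus strand), which draws dendritic cells and naive T cells through Ccr7, was at 0.419, 0.541, 0.254, 0.453 and 0.336 CPM in DIO, 2.57, 2.26, 1.82 and 0.443 CPM in GB-IL and 1.09, 0.345, 0.563, 0.372 and 0.865 CPM in RYGB. The 3 highest livers of the study were GB-IL 1, 2 and 3, and GB-IL liver 4 lay among the DIO livers. Ccl19 rose in GB-IL against DIO (log2 fold change 2.12, SE 0.48, adjusted p = 0.0333). Ccl21a, the other Ccr7 ligand, was at 0.314, 0, 1.07, 0.226 and 0.433 CPM in DIO, 1.31, 0.339, 0.721 and 1.92 CPM in GB-IL and 1.04, 0.0493, 0.246, 0.207 and 0.346 CPM in RYGB. Its livers were spread widely in each group and it did not pass (adjusted p = 0.285). Ccr7 itself had 11, 17, 4, 6 and 2 counts in the DIO livers, 3, 0, 9 and 13 in the GB-IL livers and 6, 8, 3, 7 and 1 in the RYGB livers, which was too few to be tested in the model.

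Cxcl12 (ENSMUSG00000061353, chr6:117168535-117181367, plus strand) behaved differently from Cxcl13 and Ccl19, at 320.0, 365, 219, 229.6 and 247 CPM in DIO, 85.3, 93.4, 253 and 297 CPM in GB-IL and 369, 419.8, 384, 365 and 337 CPM in RYGB. GB-IL livers 1 and 2 were the lowest of all livers, GB-IL livers 3 and 4 lay in the DIO range, and all 4 GB-IL livers lay below all 5 RYGB livers. The difference between GB-IL and RYGB did not pass (log2 fold change -1.04, SE 0.34, adjusted p = 0.124), nor did that between GB-IL and DIO (adjusted p = 0.282). Its receptor Cxcr4, carried by most leukocytes, was at 1.20, 1.67, 0.763, 0.849 and 0.961 CPM in DIO, 4.15, 4.18, 4.58 and 0.664 CPM in GB-IL and 0.930, 0.444, 0.317, 1.20 and 4.95 CPM in RYGB. RYGB liver 5 and GB-IL livers 1, 2 and 3 were above every other liver, and the difference between GB-IL and DIO did not pass (log2 fold change 1.63, SE 0.70, adjusted p = 0.184). The summed neutrophil markers were 110.3, 47.3 and 408 CPM in GB-IL livers 1, 2 and 3 and 147 CPM in RYGB liver 5. They were at most 11.9 CPM in each of the other livers, and the part of neutrophils in the Cxcr4 values was not tested.

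**Figure D3:**
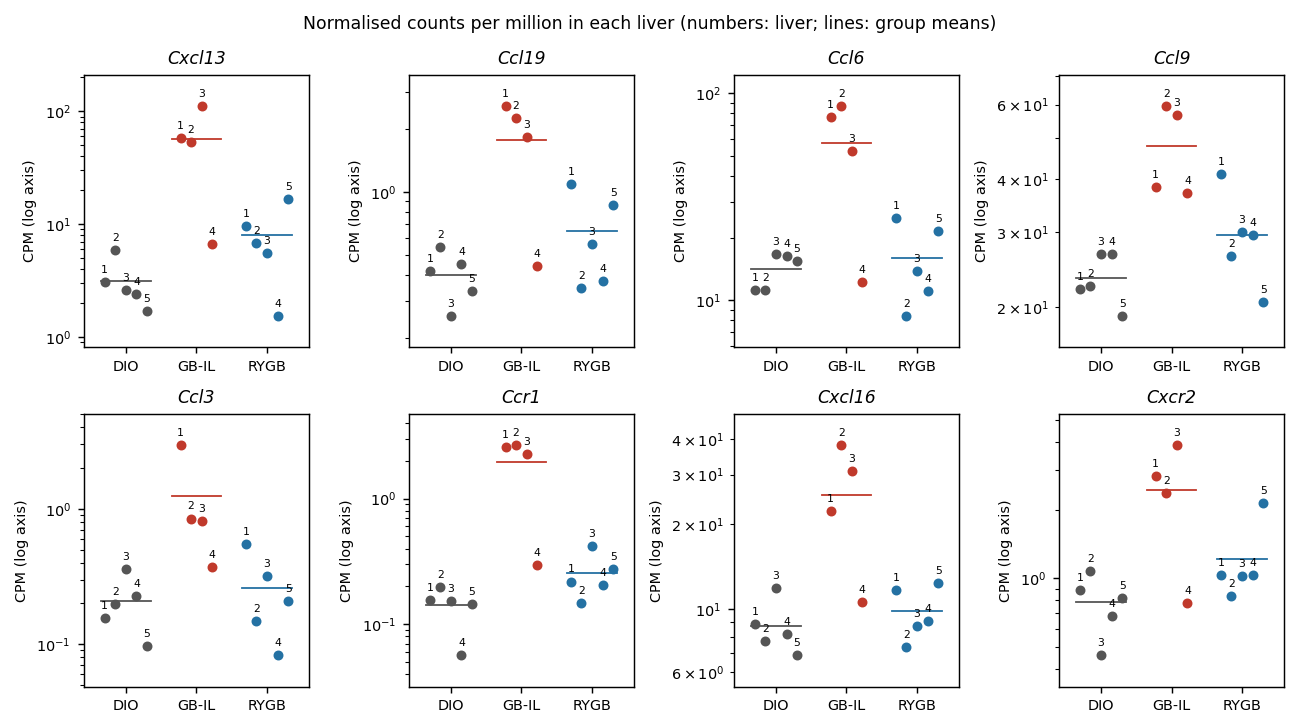
CPM on log axes in each of the 14 livers for the 7 genes called in GB-IL against DIO and for Ccr1, with the liver's number above its point and a line at the group mean. GB-IL livers 1, 2 and 3 lie above all DIO livers in each panel, while GB-IL liver 4 reaches 6.64 CPM for Cxcl13.

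Ccl9 and Ccl6, neighbours on chromosome 11, rose in GB-IL against DIO. Ccl5, Ccl9, Ccl6, Ccl3 and Ccl4, inflammatory CC ligands, lie within 138.9 kb (chr11:83525778-83664683), and of these 4 were tested. Ccl3 was called as well, but it was tested only through its GB-IL counts. Their upstream sequences are shown with that of Cxcl13 because these are the called ligands that formed 1 gene cluster and the largest change. Each sequence is the 250 bases before the RefSeq start site on GRCm38.p6, in the direction of the gene, and capitals mark matches, on either strand, to the NF-κB consensus, to the interferon-stimulated response element GAAANNGAAA or to TATAAA.
Cxcl13 (chr5:95956689-95956938, plus strand): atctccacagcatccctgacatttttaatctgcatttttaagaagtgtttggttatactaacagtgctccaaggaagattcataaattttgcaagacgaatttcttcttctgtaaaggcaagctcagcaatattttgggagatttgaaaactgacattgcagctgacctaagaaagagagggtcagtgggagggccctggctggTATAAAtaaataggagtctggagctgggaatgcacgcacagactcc
Ccl9 (chr11:83578637-83578886, minus strand): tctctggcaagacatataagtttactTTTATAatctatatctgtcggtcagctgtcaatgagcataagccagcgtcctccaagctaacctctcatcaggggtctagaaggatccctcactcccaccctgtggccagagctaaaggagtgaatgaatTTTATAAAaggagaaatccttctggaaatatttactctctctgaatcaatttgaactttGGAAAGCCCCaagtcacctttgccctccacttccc
Ccl6 (chr11:83593088-83593337, minus strand): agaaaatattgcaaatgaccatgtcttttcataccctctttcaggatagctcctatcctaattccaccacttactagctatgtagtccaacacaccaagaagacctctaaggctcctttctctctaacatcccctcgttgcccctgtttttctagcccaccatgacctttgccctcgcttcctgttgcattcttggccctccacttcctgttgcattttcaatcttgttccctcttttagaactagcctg
Ccl3 (chr11:83649379-83649628, minus strand): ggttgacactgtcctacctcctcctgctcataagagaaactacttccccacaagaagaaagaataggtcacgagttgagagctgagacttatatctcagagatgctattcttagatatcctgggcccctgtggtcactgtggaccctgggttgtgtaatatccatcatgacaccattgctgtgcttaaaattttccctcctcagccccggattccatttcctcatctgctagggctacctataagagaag
Within these windows Cxcl13 held 1 TATAAA match, Ccl9 held 1 NF-κB match and several TATAAA matches, a pair of which overlap on opposite strands, and Ccl6 and Ccl3 held none of the 3 motifs. RefSeq windows of 300 bases around the start site were found for 42 of the 56 symbols (46 entries). The NF-κB consensus was matched in 12 of the 46 (26.1%) against 8.46% of all promoters, TATAAA in 28.3% against 13.6%, and the response element in 6.52% against 3.44%. These shares describe letters and not binding, and many of the genes are copies of one another.

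Ccl6 (ENSMUSG00000018927, chr11:83587882-83593087, minus strand), a rodent ligand of Ccr1, was at 11.2, 11.2, 16.7, 16.4 and 15.5 CPM in DIO, 77.2, 86.9, 52.8 and 12.3 CPM in GB-IL and 25.0, 8.38, 13.8, 11.1 and 21.5 CPM in RYGB. All other livers lay below GB-IL livers 1, 2 and 3, and GB-IL liver 4 was inside the DIO range. Ccl6 rose in GB-IL against DIO (log2 fold change 2.01, SE 0.44, adjusted p = 0.0310). Its neighbour Ccl9 (ENSMUSG00000019122, chr11:83572919-83578636, minus strand), also a rodent ligand of Ccr1, was at 22.1, 22.4, 26.7, 26.6 and 19.1 CPM in DIO, 38.3, 59.5, 56.6 and 37.1 CPM in GB-IL and 41.3, 26.4, 30.1, 29.5 and 20.6 CPM in RYGB. All 4 GB-IL livers lay above all 5 DIO livers, including GB-IL liver 4, and the rise was the smallest of the 7 with the smallest error (log2 fold change 1.03, SE 0.21, adjusted p = 0.0278).

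Ccl3 (ENSMUSG00000000982, chr11:83647844-83649355, minus strand), which binds Ccr1, had 3, 4, 7, 4 and 2 counts in the DIO livers, 56, 15, 19 and 10 in the GB-IL livers and 10, 3, 9, 2 and 6 in the RYGB livers. The GB-IL livers did not overlap the DIO livers, and Ccl3 rose on these low counts (log2 fold change 2.54, SE 0.62, adjusted p = 0.0401). Ccl4, an inflammatory ligand of the same cluster, had 25, 17, 9 and 7 counts in the GB-IL livers against 1 to 6 in the DIO livers and 1 to 5 in the RYGB livers. It was too low for the model, and its exact two-sided permutation p was 0.0159 in GB-IL against DIO and 0.00794 in GB-IL against RYGB, the smallest that 4 against 5 livers can give.

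Ccl5, which attracts T cells and natural killer cells, was at 1.78, 1.67, 1.83, 0.962 and 1.25 CPM in DIO, 2.47, 1.92, 12.9 and 1.48 CPM in GB-IL and 1.15, 0.986, 0.810, 0.786 and 0.242 CPM in RYGB. GB-IL liver 3 alone stood far above the rest, and all 4 GB-IL livers lay above all 5 RYGB livers. Neither difference passed: GB-IL against DIO gave log2 fold change 1.65, SE 0.58, adjusted p = 0.117, and GB-IL against RYGB gave log2 fold change 2.58, SE 0.60, adjusted p = 0.0807. Without GB-IL liver 3 the log2 fold change against DIO was 0.38.

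Ccr1, a receptor of Ccl3 carried by neutrophils, monocytes and macrophages, had 3, 4, 3, 1 and 3 counts in the DIO livers, 49, 47, 53 and 8 in the GB-IL livers and 4, 3, 12, 5 and 8 in the RYGB livers. Every GB-IL liver lay above every DIO liver, the ratio of rates was 12.5 (95% Clopper-Pearson interval 7.24 to 23.4, counting error only), and the exact permutation p was 0.00794. Ccr1 missed the filter on counts, and in the same model without that filter it passed (log2 fold change 3.68, SE 0.57, adjusted p = 0.0224).

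Cxcl16 and Cx3cl1 are the only chemokines made as transmembrane proteins and shed from the cell surface. Cxcl16 (ENSMUSG00000018920, chr11:70453983-70459984, minus strand) was at 8.85, 7.73, 11.9, 8.20 and 6.87 CPM in DIO, 22.3, 38.1, 30.9 and 10.6 CPM in GB-IL and 11.7, 7.35, 8.70, 9.06 and 12.4 CPM in RYGB. GB-IL livers 1, 2 and 3 were above all other livers, and GB-IL liver 4 was below the highest DIO liver. Cxcl16 rose in GB-IL against DIO (log2 fold change 1.55, SE 0.30, adjusted p = 0.0278) and had the smallest p of all the chemokine genes in GB-IL against RYGB without passing (log2 fold change 1.37, SE 0.30, adjusted p = 0.0776). Cxcr6, its receptor on T cells and natural killer T cells, was at 1.73, 1.53, 0.967, 0.622 and 0.577 CPM in DIO, 0.0525, 0.339, 2.08 and 1.36 CPM in GB-IL and 1.42, 0.888, 0.880, 0.538 and 0.381 CPM in RYGB. GB-IL livers 1 and 2 held the lowest values of the study and GB-IL liver 3 the highest, so that ligand and receptor did not run together in livers 1 and 2, and the group difference did not pass (adjusted p = 0.905).

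Cx3cl1, or fractalkine, was at 1.20, 0.837, 1.12, 0.736 and 0.673 CPM in DIO, 2.89, 2.32, 1.87 and 0.959 CPM in GB-IL and 1.31, 1.09, 0.986, 1.74 and 0.623 CPM in RYGB. GB-IL livers 1, 2 and 3 were the highest 3 of the study, and the difference from DIO did not pass (log2 fold change 1.12, SE 0.36, adjusted p = 0.0927). Its receptor Cx3cr1, a marker of patrolling monocytes and some macrophages, was at 0.890, 1.08, 0.458, 0.113 and 0.625 CPM in DIO, 0.210, 0.395, 3.65 and 0.959 CPM in GB-IL and 1.26, 2.07, 1.34, 1.78 and 1.04 CPM in RYGB. GB-IL livers 1 and 2 were low and GB-IL liver 3 was the highest of all, and Cx3cr1 passed in neither operation against DIO (adjusted p = 0.343 in GB-IL and 0.612 in RYGB).

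Of the neutrophil axis, the receptor rose, and single livers stood out for the ligands Cxcl1, Cxcl2 and Cxcl3. Cxcr2 (ENSMUSG00000026180, chr1:74153989-74161246, plus strand), the neutrophil receptor for Cxcl1 and its relatives, was at 0.890, 1.08, 0.458, 0.679 and 0.817 CPM in DIO, 2.84, 2.37, 3.86 and 0.775 CPM in GB-IL and 1.04, 0.838, 1.02, 1.03 and 2.15 CPM in RYGB. GB-IL livers 1, 2 and 3 were the highest of all, RYGB liver 5 came next, and GB-IL liver 4 lay in the DIO range. Cxcr2 rose in GB-IL against DIO just inside the threshold (log2 fold change 1.64, SE 0.42, adjusted p = 0.0489). The summed neutrophil markers were above the other livers in the same 4 libraries, and the part of neutrophil number in the rise of Cxcr2 was not tested.

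Cxcl1 was at 11.3, 4.72, 9.77, 12.7 and 48.1 CPM in DIO, 92.8, 14.1, 27.9 and 6.27 CPM in GB-IL and 7.49, 12.0, 8.48, 41.9 and 2.60 CPM in RYGB. Single livers stood out in each group (DIO liver 5, GB-IL liver 1 and RYGB liver 4), and no difference between groups passed (adjusted p = 0.444 in GB-IL against DIO). Cxcl2 had 260 counts in GB-IL liver 1 and 10, 14 and 3 in the other GB-IL livers, against 0 to 10 in the DIO livers and 3 to 5 in the RYGB livers. Cxcl3 had 24, 2, 1 and 0 counts in GB-IL livers 1 to 4 and 0 counts in every DIO and RYGB liver. GB-IL liver 1 therefore led for Cxcl1, Cxcl2 and Cxcl3, which lie close together on chromosome 5. On the CPM scale 3 of the 4 GB-IL livers lay above all DIO livers for Cxcl2. Cxcl5 was not set by 1 liver. It had 3, 11, 5 and 1 counts in the GB-IL livers, 0, 0, 2, 0 and 0 in the DIO livers and 5, 0, 3, 2 and 1 in the RYGB livers. Its exact permutation p in GB-IL against DIO was 0.0159. Cxcr1, the other neutrophil receptor, had at most 5 counts in any liver.

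Among the monocyte attractants, Ccl2, the main ligand of Ccr2, was at 0.680, 0.541, 0.611, 0.283 and 0.529 CPM in DIO, 2.89, 0.960, 1.99 and 0.848 CPM in GB-IL and 2.46, 0.543, 2.57, 1.41 and 0.658 CPM in RYGB. All 4 GB-IL livers and 3 of the 5 RYGB livers lay above all DIO livers. Ccl2 passed neither in GB-IL (log2 fold change 1.64, SE 0.51, adjusted p = 0.0883) nor in RYGB (log2 fold change 1.51, SE 0.49, adjusted p = 0.445), comparisons that share the DIO livers. Ccl7, its neighbour on chromosome 11, had 16, 5, 13 and 7 counts in the GB-IL livers against 0, 2, 5, 0 and 0 in the DIO livers (exact permutation p = 0.0159), with the GB-IL livers above DIO on the CPM scale. Ccl8 had 87 counts in the GB-IL livers, of which 74 were in GB-IL liver 3, and Ccl12 had 10 counts in all.

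Ccr2, the receptor that marks inflammatory monocytes, was at 2.04, 2.02, 1.68, 0.849 and 0.865 CPM in DIO, 0.578, 0.678, 9.58 and 3.32 CPM in GB-IL and 1.75, 2.07, 2.39, 2.36 and 2.15 CPM in RYGB. GB-IL livers 1 and 2 were the lowest of the study although their Ccl2 was above every DIO liver, while GB-IL livers 3 and 4 were the highest, and Ccr2 did not pass (adjusted p = 0.239). The summed monocyte markers were 29.8, 30.4, 70.4 and 12.0 CPM in GB-IL livers 1 to 4, all above the DIO livers at 5.91 to 11.1 CPM. In livers 1 and 2 these sums were mostly Plac8 (13.2 and 20.9 CPM with TMM scaling) and Itgam (12.1 and 7.74 CPM). S100a4 and F13a1 also lay above all DIO livers there. Ly6c2 of the same list stayed near DIO in livers 1 and 2, at 0.630 and 0.452 CPM against 0.192 to 0.576 CPM. The part of monocytes in the Ccr2 values was not tested.

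The interferon-induced ligands of Cxcr3 recruit activated T cells. Cxcl9 (ENSMUSG00000029417, chr5:92321347-92328079, minus strand) was at 26.3, 26.7, 12.9, 12.1 and 15.5 CPM in DIO, 1.05, 0.904, 88.8 and 16.2 CPM in GB-IL and 2.24, 5.92, 4.96, 4.59 and 1.63 CPM in RYGB. All 5 RYGB livers lay below all 5 DIO livers, which was so for 1.66% of all tested genes, whereas the GB-IL group held both the lowest livers of the study (1 and 2) and the highest (3). The RYGB difference did not pass (log2 fold change -2.27, SE 0.91, adjusted p = 0.528), nor did GB-IL against RYGB (log2 fold change 2.79, SE 0.95, adjusted p = 0.138), whose log2 fold change was 0.66 without GB-IL liver 3.

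Cxcl10, its neighbour, was at 4.71, 6.05, 3.61, 1.53 and 1.92 CPM in DIO, 11.6, 2.20, 9.37 and 4.09 CPM in GB-IL and 1.80, 1.73, 2.53, 1.78 and 0.519 CPM in RYGB. RYGB liver 5 was the lowest of all and GB-IL livers 1 and 3 the highest, and neither operation passed against DIO (adjusted p = 0.280 in GB-IL and 0.571 in RYGB). Cxcl11, annotated as a polymorphic pseudogene because the C57BL/6 allele does not encode the full protein, ranged from 2.09 to 4.38 CPM in DIO, from 0.169 to 3.06 CPM in GB-IL and from 1.45 to 4.78 CPM in RYGB. Cxcr3 was at 0.942, 0.640, 0.407, 0.792 and 0.673 CPM in DIO, 0.210, 0.282, 1.23 and 0.443 CPM in GB-IL and 0.766, 0.444, 0.669, 0.372 and 0.381 CPM in RYGB. It was lowest in GB-IL livers 1 and 2 and highest in GB-IL liver 3, and it did not pass (adjusted p = 0.677). The summed T and NK cell markers were 1.57, 4.26, 14.6 and 4.86 CPM in GB-IL livers 1 to 4 against 5.05 to 8.80 CPM in DIO, and their part in these values was not tested.

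**Figure D4:**
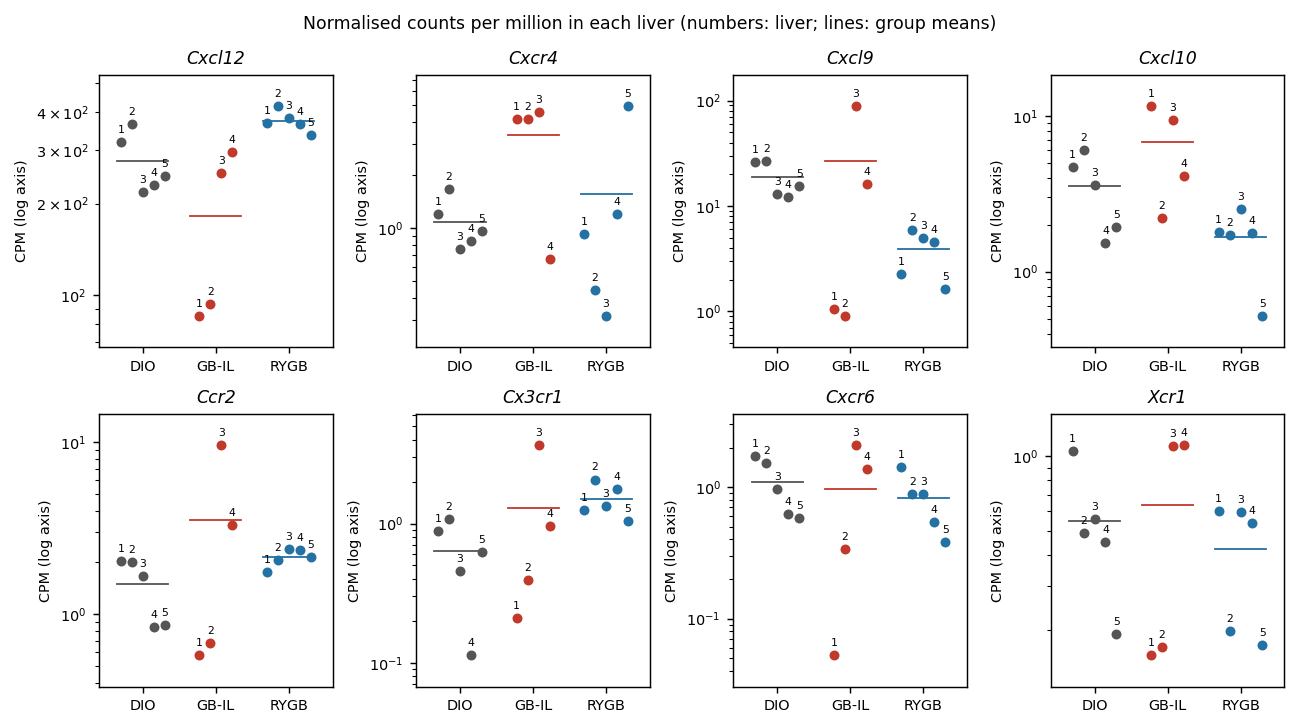
CPM on log axes in each of the 14 livers for Cxcl12 and its receptor Cxcr4, the Cxcr3 ligands Cxcl9 and Cxcl10, and the receptors Ccr2, Cx3cr1, Cxcr6 and Xcr1, with the liver's number above its point and a line at the group mean. GB-IL livers 1 and 2 lie low and GB-IL liver 3 lies high for Cxcl9 and the last 4 receptors, and the 5 RYGB livers lie below DIO for Cxcl9.

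The split within GB-IL was visible in several leukocyte receptors, a pattern noticed after the values were seen. Ccr2, Cx3cr1, Cxcr3, Cxcr6 and Xcr1, the last a marker of cross-presenting dendritic cells, were all lower in GB-IL livers 1 and 2 than in GB-IL livers 3 and 4. In the same livers 1 and 2 the ligands Ccl6, Ccl19 and Cx3cl1 were at their highest. GB-IL liver 3 was the highest of the 14 livers for Cxcl13, Cxcl14, Ccl5, Cxcl9, Ccr2, Cx3cr1, Cxcr2, Cxcr3 and Cxcr6, and it also held the largest sums of macrophage (1198 CPM), Kupffer cell (1401 CPM), dendritic cell (232 CPM) and T and NK cell markers. The dendritic cell sum there was almost all H2-Ab1 (236 CPM with TMM scaling). Of the other genes of that list, Flt3 was also highest in GB-IL liver 3 (1.02 CPM). Zbtb46 was the lowest of all livers there (4.03 CPM), and Clec9a (4.62 CPM) lay below DIO liver 1 (4.97 CPM). The part of these cells in the chemokine values of that liver was not tested.

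**Figure D5:**
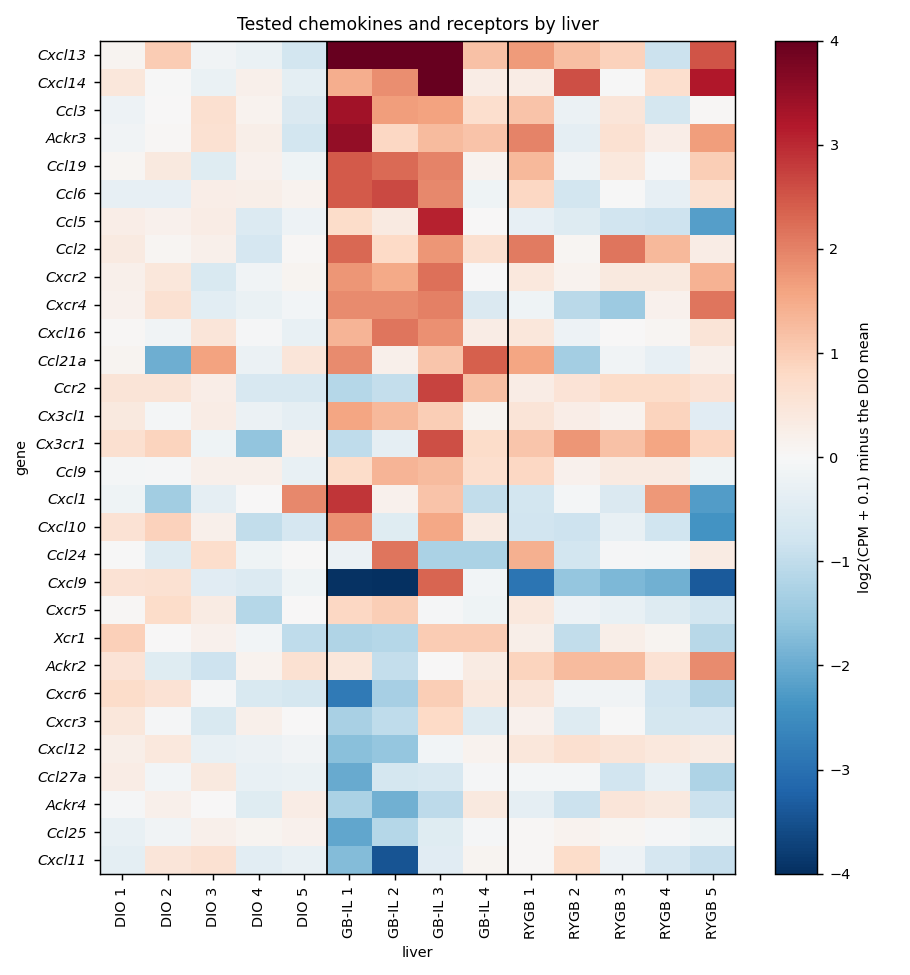
Level of 30 of the 31 tested genes in each of the 14 livers as log2(CPM + 0.1) minus the DIO mean, with colours ending at 4 in either direction and genes ordered by log2 fold change in GB-IL against DIO. The columns of GB-IL livers 1, 2 and 3 are red for the upper genes, and GB-IL liver 4 resembles the DIO columns.

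Among the ligands of epithelial and mucosal tissue, Cxcl14, which was chosen after its values were seen, was at 1.88, 1.33, 1.12, 1.58 and 1.01 CPM in DIO, 3.89, 5.20, 32.0 and 1.70 CPM in GB-IL and 1.70, 8.48, 1.34, 2.19 and 13.4 CPM in RYGB. GB-IL liver 3 and RYGB livers 5 and 2 stood above the rest, and Cxcl14 did not pass in GB-IL against DIO (adjusted p = 0.0645) or in RYGB (adjusted p = 0.528). Ccl25, the ligand of Ccr9 in thymus and small intestine, ranged from 2.41 to 3.46 CPM in DIO, from 0.630 to 2.88 CPM in GB-IL and from 2.63 to 3.35 CPM in RYGB under the identifier that was tested, and 3 of the 4 GB-IL livers lay below all DIO livers (adjusted p = 0.174). Ccl27a, known from skin, ranged from 4.41 to 7.17 CPM in DIO and from 1.26 to 5.31 CPM in GB-IL (adjusted p = 0.233). Ccl20 had 1 count in all 14 livers and its receptor Ccr6 had 35, with 10 in DIO, 6 in GB-IL and 19 in RYGB.

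Ccl24, an eosinophil attractant through Ccr3, ranged from 1.57 to 3.77 CPM in DIO, from 0.885 to 10.5 CPM in GB-IL and from 1.33 to 6.29 CPM in RYGB. The other ligands of Ccr3 and Ccr4 (Ccl11, Ccl17 and Ccl22) had 17, 25 and 61 counts over all livers. Over the 22 genes too low for the model, 66 exact permutation tests were made in the 3 comparisons, and the smallest p after Benjamini-Hochberg adjustment was 0.150. Since a single such test could not go below 0.00794, at least 11 of the 66 would have had to reach that value before any adjusted p could pass 0.05, so these tests could hardly make a call at any depth.

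The atypical receptors differed in which group stood apart. Ackr2, which scavenges inflammatory CC ligands such as Ccl2, Ccl3 and Ccl5, was at 4.03, 1.92, 1.48, 3.00 and 4.18 CPM in DIO, 3.78, 1.36, 2.76 and 3.43 CPM in GB-IL and 5.14, 6.61, 6.62, 4.10 and 10.4 CPM in RYGB. The RYGB livers were high, with 4 of 5 above all DIO livers and all 5 above all GB-IL livers. Ackr2 had the smallest p among the chemokine genes in RYGB against DIO and did not pass (log2 fold change 1.17, SE 0.35, adjusted p = 0.387), and it did not pass in GB-IL against RYGB (log2 fold change -1.21, SE 0.38, adjusted p = 0.116).

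Ackr3, which takes up Cxcl12, was at 0.419, 0.492, 0.763, 0.566 and 0.240 CPM in DIO, 6.36, 0.904, 1.27 and 1.14 CPM in GB-IL and 2.13, 0.345, 0.775, 0.579 and 1.73 CPM in RYGB. All 4 GB-IL livers lay above all DIO livers, and GB-IL liver 1 stood far above the other 3. The difference did not pass (log2 fold change 2.27, SE 0.65, adjusted p = 0.0671) and its log2 fold change was 1.15 without GB-IL liver 1. Ackr4, which takes up Ccl19, Ccl21 and Ccl25, ranged from 0.792 to 1.44 CPM in DIO and from 0.226 to 1.55 CPM in GB-IL under the identifier that was tested (adjusted p = 0.350).

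In RYGB against DIO, 0 of the 31 tested genes passed in edgeR's quasi-likelihood test, as did 0 of all tested genes. At an unadjusted p under 0.05, 3 were higher (Ackr2, Ccl2 and Cxcl14) and 2 were lower (Cxcl9 and Cxcl10), against 5.35% and 3.36% of all tested genes. DESeq2 also called 0, against 0.38% of all genes higher and 0.215% lower. Voom, run with sample quality weights, called 4 higher (Ackr2, Ccl2, Cx3cr1 and Cxcl12) and 0 lower, where it called 6.08% of all tested genes higher. None of the tested chemokine genes had all RYGB livers above all DIO livers, which was so for 1.87% of all tested genes, and Cxcl9 alone had them all below.

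In GB-IL against RYGB, 0 of the 31 tested genes passed in edgeR's quasi-likelihood test, as did 0 of all tested genes. At an unadjusted p under 0.05, 11 were higher and 3 lower, against 15.3% and 6.77% of all tested genes. Ccl3 and Ccl19 were among the 11, and both were tested only through their GB-IL counts. DESeq2 called 11, of which 9 were higher, against 4.27% of all genes higher and 1.18% lower. Voom with sample quality weights called 3 higher (Ccl5, Cxcl13 and Cxcl16), against 0.779%. Ccl5 had all GB-IL livers above all RYGB livers (1.27% of all tested genes), and Ackr2 and Cxcl12 had them all below (1.57%). Without GB-IL liver 4 the count was 17, with 13 higher and 4 lower, where 21.5% of all tested genes passed.

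Downstream of the receptors, 28 genes of a list of chemokine receptor signalling were tested, and 3 rose and 0 fell in GB-IL against DIO. Of all tested genes, 3.15% rose and 0.112% fell. Gng2, a G protein subunit, rose with a log2 fold change of 1.38 (SE 0.28, adjusted p = 0.0278). Pik3r5, the regulatory subunit of the phosphoinositide 3-kinase that G proteins activate, rose by 1.43 on the log2 scale (SE 0.33, adjusted p = 0.0343). Rgs1, which shortens G protein signals in leukocytes, rose by 2.47 (SE 0.62, adjusted p = 0.0433), from 0.590 to 2.40 CPM in DIO to 16.2, 10.4, 4.71 and 1.44 CPM in GB-IL livers 1 to 4. Their median on the log2 scale was 0.82, against 0.04 over all tested genes, and 27 of the 28 were higher in GB-IL. With any DIO liver left out, or without GB-IL liver 1 or 2, the number called was 0. Without GB-IL liver 4 it was 16, where 24.6% of all tested genes were called. By voom with sample quality weights the log2 fold change of Rgs1 was 1.35 (adjusted p = 0.179).

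Of 7 related genes whose symbols fall outside the rule, Ccrl2 and Cmklr1, which both bind chemerin, rose in GB-IL against DIO. Ccrl2 was at 0.814 to 1.58 CPM in DIO and at 9.61, 2.37, 3.35 and 1.48 CPM in GB-IL livers 1 to 4 (log2 fold change 1.78, SE 0.44, adjusted p = 0.0426). Cmklr1 was at 3.24 to 4.22 CPM in DIO and at 10.2, 5.59, 12.1 and 4.98 CPM in GB-IL livers 1 to 4 (log2 fold change 1.17, SE 0.30, adjusted p = 0.0450), with all GB-IL livers above DIO. Without GB-IL liver 1 the log2 fold change of Ccrl2 was 0.965 (adjusted p = 0.160), and neither gene passed with any DIO liver, or GB-IL liver 1 or 2, left out. Rarres2, which encodes chemerin, did not pass (adjusted p = 0.548), and neither did Darc, Cklf or the platelet chemokines Pf4 and Ppbp (adjusted p between 0.0899 and 0.845).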

How the data were processed

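By the methods and the tool names in the labels, the authors amplified total RNA of each liver and sequenced it on an Illumina HiSeq. Their reads were mapped to mm10 by TopHat 2 and assigned to genes by HTSeq. The deposited values are the resulting whole counts, not normalized. Annotation, strand setting and HTSeq version were not given in the sources used here. Labels name stranded mRNA and total RNA kits but do not assign them, so the kit could not enter a model. Amplification can add noise to low counts.

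In R 4.3.3, edgeR 4.0.16 was used, with limma 3.58.1 and DESeq2 1.42.0 for alternatives. Rows were filtered by filterByExpr, scaled by TMM and fitted by the quasi-likelihood method in 1 model of the 14 livers with 3 group means. In each of the 3 comparisons the Benjamini-Hochberg adjustment covered all 14252 tested genes, at an FDR of 0.05. The method was tested on simulated data. Genes below the filter with at least 10 counts got exact permutation tests of CPM (two-sided) and ratios of rates with 95% Clopper-Pearson intervals. Values per liver were given for genes called, genes not overlapping DIO, the 6 highest per kilobase, the 3 smallest p-values in each of the other comparisons and 10 ligand and receptor pairs, except that 1 gene is not reported here. Exon lengths and positions came from GENCODE M21, promoters from RefSeq. The members and lists were chosen with earlier results of these data known. Figures were drawn with matplotlib 3.10.9.

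Alternatives comprised scaling by RLE or upper quartile, DESeq2, voom with quality weights, a changed filter (none, or a mean of 50 counts), a fit of the 2 compared groups, the replicate block, and each liver left out in turn.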

Additional observations from a re-analysis of the deposited data

Results flagged for a closer look

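In 23 chemokine genes, each of the 3 groups was searched for a liver far from the others, which gave 7 such cases in 69 groups. The cut-offs flag about 1 in 20 groups of independent normal values. These genes were chosen from the same data and share the same livers, so that rate cannot show whether 7 is many. The value in each case is the gap to the nearest liver divided by the whole range of the group.

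RYGB liver 5 was the highest of its group for both Cxcr2 (2.15 CPM, next 1.04, gap 0.847 of the range) and Cxcr4 (4.95 CPM, next 1.20, gap 0.809). The summed neutrophil markers of that liver were 147 CPM against 6.91 to 11.9 CPM in the other RYGB livers, and their part in these values was not tested. GB-IL liver 4 was the lowest of its group for Cxcr4 (0.664 CPM, next 4.15, gap 0.890).

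Cxcl1 stood out in DIO liver 5 (48.1 CPM, next 12.7, gap 0.817) and in RYGB liver 4 (41.9 CPM, next 12.0, gap 0.760). Ackr3 was highest in GB-IL liver 1 (6.36 CPM, next 1.27, gap 0.932). Ccl5 was highest in GB-IL liver 3 (12.9 CPM, next 2.47, gap 0.913), where the summed T and NK cell markers were also the highest of all livers at 14.6 CPM, whose part was not tested.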

How the results depend on the processing

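In GB-IL against DIO the 7 chemokine genes were called again under RLE and upper quartile scaling (3.31% and 3.75% of all genes). DESeq2 tested 57 chemokine genes and called 14 (8.06% of all genes). These included Ccl4, Ccl7, Ccl8 and Ccr1, which the main filter left out. With a mean of at least 50 counts, 16 were tested and 4 called (3.35% of all genes). The test without a filter called 7 (2.12% of all genes) and voom 8 (4.13% of all genes), each with 6 of the 7 shared. A fit of the 2 groups compared called 0, as it did over all genes. The 0 to 19 called with 1 liver left out depended on which liver it was, with 5 to 7 without any 1 RYGB liver (2.07% to 3.41% of all genes). For the signalling genes, 3 in the main test, DESeq2 called 11 (8.06% of all genes), voom with sample quality weights 11 (4.13% of all genes) and the fit of the 2 groups compared 0. The range with 1 liver left out was 0 to 16. In RYGB against DIO voom called 4 and the fit of the 2 groups compared 1 (Cxcl9, lower), and in GB-IL against RYGB DESeq2 called 11, voom 3, the test without a filter 1 (Ccr1) and the leave-one-out fits 0 to 17. Of 38 log2 fold changes recomputed under these alternatives (tested chemokine genes with p under 0.05 in that comparison, and the 5 signalling or related genes called), 0 changed sign. These were chosen by their p in the same livers, so a change of sign was unlikely from the start. The cause of the differences between tools was not tested.

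Same-numbered livers did not deviate together (correlations from -0.38 to 0.38), and few livers correlated best with their own number (0 of 8 in GB-IL and DIO, 0 of 10 in RYGB and DIO, and 3 of 8 in GB-IL and RYGB). With the replicate block the chemokine genes called in GB-IL against DIO numbered 0 and the signalling genes 0. Depth limits the 27 genes that were not tested. The controls had no sham operation, and only 4 livers with wide spread stand for GB-IL.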

Other observations

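Several genes too low to be tested held their counts in GB-IL livers 1 and 2. Ccl11, an eosinophil attractant, had 10 of its 17 counts in GB-IL liver 1. Cxcl17, a mucosal chemokine, had 13 of its 15 counts in the GB-IL livers. Xcl1, the ligand of Xcr1, ran the other way, with 0 counts in GB-IL livers 1 and 2, 18 in the other GB-IL livers and 23 in the DIO livers. The counts of Ccl28 and Ccr9 gave ratios of rates between GB-IL and DIO of 1.18 (95% Clopper-Pearson interval 0.575 to 2.44) and 1.12 (0.598 to 2.08).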
